A study of Mus musculus with 16 samples.

Results

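The Obox genes encode homeobox transcription factors of the oocyte and early embryo and lie in 1 cluster on mouse chromosome 7. The members described here were the 5 genes Obox1, Obox2, Obox3, Obox5 and Obox6, taken by name from the RefSeq gene table of GRCm38.p6, out of 53 entries whose symbol starts with Obox and 21887 protein-coding genes in all. The marks at these genes were read from 4 peak lists of mouse late 2-cell embryos taken 36 h after fertilization. Control zygotes had been injected with H2O and mutant zygotes with Hdac1 mutant mRNA; the labels do not say which residue was changed, which strain was used or how many embryos were pooled, and they name no deletion, so the embryos may still have carried their own Hdac1. The 16 libraries comprised 8 immunoprecipitation and 8 input libraries, with 2 per group, but each mark in each condition was represented by 1 deposited list of peak positions.

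Homeodomain proteins bind short DNA motifs and switch target genes on or off. Obox1, Obox2 and Obox5 are known as maternal members, transcribed in the growing oocyte, and Obox3 as a member switched on in the embryo when its own genome becomes active at the 2-cell stage. The family is known to promote that first wave of transcription. Trimethylation of lysine 4 of histone H3 (H3K4me3) is typical of promoters, acetylation of lysine 27 (H3K27ac) of active promoters and enhancers, and Hdac1 is an enzyme that takes acetyl groups off histones.

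Every value below describes 1 list, so there was no replicate error, no test of a difference between conditions was possible and no p-value is given. The lists hold no read counts or peak heights, and the depth of the libraries is therefore unknown. A missing peak means only that none was called, and a list cannot tell a mark in fewer embryos from a weaker mark in all. Counted on chromosomes 1 to 19, X and Y, there were 77349 control and 122487 mutant peaks for H3K27ac, and 86798 and 85780 for H3K4me3. As a check of the labelled stage, all 6 marker genes of the 2-cell embryo had an H3K27ac peak within 2 kb of a gene end in both conditions. They had an H3K4me3 peak at 5 of 6 in control and 6 of 6 in mutant embryos, the exception being Zscan4c. Of 6 genes of granulosa cells, which surround the oocyte, 2 had H3K27ac in control and 3 in mutant embryos, and 4 and 6 had H3K4me3. Of all protein-coding genes, 54.8% and 58% had H3K27ac and 74.7% and 72.9% had H3K4me3. Peaks at gene ends are not expression, these counts do not settle the stage, and the part of other cells in these lists was not tested.

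The promoters of the cluster are shown first, because their likeness may limit how well reads can be assigned to a single gene. They come from the RefSeq table for GRCm38.p6, which gave 300 bases around the annotated start of Obox1 (chr7:15547007-15547306, plus strand), Obox2 (chr7:15388601-15388900, plus strand), Obox3 (chr7:15639728-15640027, minus strand) and Obox5 (chr7:15750120-15750419, plus strand). Obox6 was not matched. Each runs 5′ to 3′ along the strand of its gene. The capitals mark a run of 25 bases present without a mismatch in all 4 promoters and the letters TATATAA, the core of a TATA box, the element that positions transcription starts.
Obox1: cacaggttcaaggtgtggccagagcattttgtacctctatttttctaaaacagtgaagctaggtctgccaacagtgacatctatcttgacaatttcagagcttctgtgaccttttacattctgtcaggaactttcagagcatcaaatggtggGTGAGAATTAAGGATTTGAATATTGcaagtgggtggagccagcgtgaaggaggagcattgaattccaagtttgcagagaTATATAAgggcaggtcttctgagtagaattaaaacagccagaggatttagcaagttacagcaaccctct
Obox2: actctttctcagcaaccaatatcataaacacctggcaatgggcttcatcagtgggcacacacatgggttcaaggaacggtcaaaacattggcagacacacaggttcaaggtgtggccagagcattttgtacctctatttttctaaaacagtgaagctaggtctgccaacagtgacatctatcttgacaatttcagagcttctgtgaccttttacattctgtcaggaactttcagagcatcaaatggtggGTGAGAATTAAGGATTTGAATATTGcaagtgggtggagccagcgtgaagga
Obox3: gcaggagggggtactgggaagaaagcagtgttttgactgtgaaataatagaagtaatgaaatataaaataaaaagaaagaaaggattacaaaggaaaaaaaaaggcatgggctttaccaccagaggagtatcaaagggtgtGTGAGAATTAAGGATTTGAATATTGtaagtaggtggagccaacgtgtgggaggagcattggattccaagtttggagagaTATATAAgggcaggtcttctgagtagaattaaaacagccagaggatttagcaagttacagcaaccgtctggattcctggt
Obox5: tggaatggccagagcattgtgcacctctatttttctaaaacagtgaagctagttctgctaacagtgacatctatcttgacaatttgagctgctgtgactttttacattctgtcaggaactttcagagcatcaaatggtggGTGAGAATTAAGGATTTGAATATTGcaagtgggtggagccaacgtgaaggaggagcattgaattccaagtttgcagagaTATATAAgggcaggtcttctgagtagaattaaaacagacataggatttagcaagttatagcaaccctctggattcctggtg

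Obox1 and Obox2 were identical at 203 of 203 compared bases once Obox2 was shifted by 97 bases, so that the same sequence carries a different annotated start at each gene. Compared without gaps at their best offset, Obox3 and Obox5 agreed at 65.9% of 299 bases and Obox1 and Obox5 at 78.1% of 288. Of the 251 stretches of 50 bases in the Obox1 promoter, 79.7% stood without a mismatch in the promoter of another gene on either strand. The other genes were Obox2, Obox3, Obox5 and Obox7. The share was 61.4% for Obox2, 47.0% for Obox5, 33.9% for Obox7 and 8.37% for Obox3. Copies outside the promoter table were not searched, so these shares are lower limits. Reads from such stretches can be placed at another copy or discarded, and how the authors treated them is not given in the sources used here. Read length and mappability were not known, and the part of read placement in any call was not tested.

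TATATAA, searched on both strands, was found 19 bases before the annotated start of Obox1, 30 before that of Obox3 and 31 before that of Obox5. Its first base thus lay at nearly the same place in Obox3 and Obox5. It was not in the Obox2 window. It was held by 3.24% of the 32851 promoters given by RefSeq. GGATTA, whose reverse complement TAATCC is the motif of the related Otx and Crx homeodomains, was found once, 168 bases before the start of Obox3, and is held by 7.06% of promoters. CCAAT, the motif of the factor NF-Y, was found on either strand in Obox2 and Obox3 and is held by 37.4%. These matches are letters in a window and were not tested for binding.

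At the level of whole genes, a member was counted as marked when a peak reached within 2 kb of either gene end. H3K27ac marked 2 of the 5 members in control embryos, Obox3 and Obox6, and 4 in mutant embryos, Obox2, Obox3, Obox5 and Obox6. Of all protein-coding genes, 54.8% were so marked in the control list and 58% in the mutant list. H3K4me3 marked 4 members in control embryos, Obox2, Obox3, Obox5 and Obox6, and 2 in mutant embryos, Obox5 and Obox6, against 74.7% and 72.9% of coding genes. Thus 2 members, Obox2 and Obox5, had H3K27ac in mutant embryos only, against 15.6% of coding genes, and 2 members, Obox2 and Obox3, had H3K4me3 in control embryos only, against 6.68%. No member had H3K27ac in control only (12.5% of coding genes) or H3K4me3 in mutant only (4.85%). Some of these calls changed with the settings. With windows of 5 kb Obox2 had H3K27ac in both conditions, which left Obox5 as the 1 member with it in mutant embryos only, against 15.3% of coding genes at that window. The mutant H3K27ac call at Obox3 is 1 peak of 276 bp, and Obox3 was H3K27ac control-only with windows of 1 kb, with a minimum of 500 bp in the windows, in the wider 50% of each list and with lists of equal size, against 10.7% to 14.8% of coding genes under these settings. In the wider 50% of each list the H3K4me3 order turned, with 1 member marked in control and 2 in mutant embryos, 0 in control only and 1, Obox5, in mutant only. Of coding genes, 67.0% and 67.2% were then marked; 5.80% were control-only and 5.95% mutant-only. The median of covered bases at the ends of the 5 members was 0 bp in the control list and 1276 bp in the mutant list for H3K27ac, and 1355 and 0 bp for H3K4me3. Over the coding genes that had a peak, the median was 3630 and 2748 bp for H3K27ac and 3771 and 4001 bp for H3K4me3, a figure that leaves out genes without a peak.

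**Figure D1:**
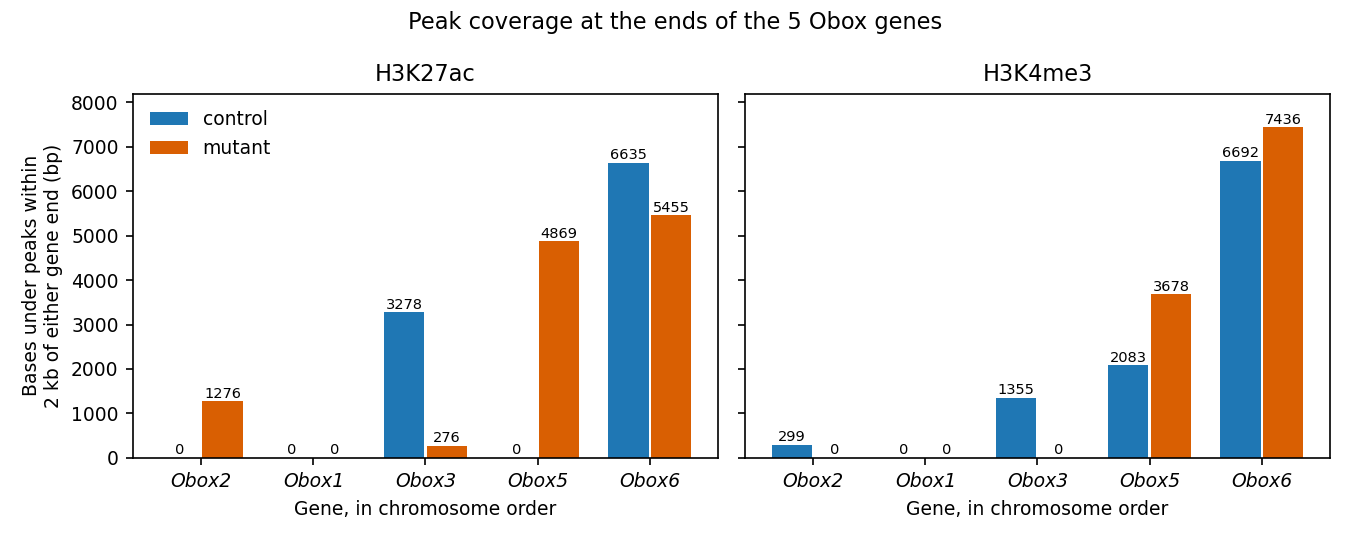
Bases under peaks (bp) within 2 kb of either end of each gene, 1 bar per deposited list, blue for control and orange for mutant embryos. The left panel is H3K27ac and the right panel H3K4me3. Obox6 is covered in every list, Obox1 in none, and Obox5 goes from 0 bp of control to 4869 bp of mutant H3K27ac.

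The count depended on which end of the gene was read. With windows at the annotated start alone, which 4 members have in the promoter table, H3K27ac marked 1 of 4 in control embryos, Obox3, and 1 of 4 in mutant embryos, Obox5, against 3 with both ends. The shares over 17492 coding genes with a listed start were 45.6% and 44.7%. H3K4me3 marked the starts of Obox3 and Obox5 in control and of Obox5 alone in mutant embryos, with shares of 71.2% and 67.7% over coding genes. At starts, H3K27ac was therefore listed at Obox3 in control and at Obox5 in mutant embryos. For starts, the share of coding genes marked in 1 condition only was not computed, so these calls stand without that background.

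Obox3 (chromosome 7, 15625306 to 15639777), the embryonic member, is read from the minus strand, so its start is the upper of its ends. In control embryos H3K27ac covered 3278 bp within 2 kb of the start, in a peak of 2550 bp within the gene and a peak of 1901 bp upstream of it. A gap of 723 bp between both peaks held the start itself. The wider of them was close to the lower quartile, 2432 bp, of the widest control H3K27ac peak at marked coding genes, whose median was 7609 bp. The mutant H3K27ac list had 0 bp there, with the nearest peak 2970 bp from the start. Its only peak at a gene end was one of 276 bp at the far end of the gene. Over the gene body the H3K27ac bases numbered 4120 in the control list and 1222 in the mutant list. H3K4me3 covered 1355 bp at the start in control embryos, in a peak of 1382 bp whose edge lay 646 bp away. In mutant embryos the nearest H3K4me3 peak lay 29008 bp from the start. Both marks were thus listed beside the Obox3 start in control embryos and neither within 2 kb of it in mutant embryos. In the wider 50% of each list, however, the control H3K4me3 call at Obox3 was lost and the difference for that mark was 0 bp.

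Obox5 (15750370 to 15759274), a maternal member, lay 110593 bp further along. The control H3K27ac list had no peak within 2 kb of either end. The closest one lay 5890 bp beyond the far end, and the one closest to the start 7814 bp from it. In the mutant list a peak of 11211 bp (15743197 to 15754407) ran over the start and the whole 300-base promoter, and a second one of 5695 bp lay beyond the far end. Together they covered 4869 bp of the gene-end windows. The median width of the widest H3K27ac peak at marked coding genes in that list was 4179 bp, with an upper quartile of 7994 bp. H3K4me3 at the start of Obox5 was split in control embryos into peaks of 820 and 1263 bp. The gap of 777 bp between them held the start and the printed promoter. In mutant embryos 1 peak of 5539 bp covered both, and the covered bases at the gene ends came to 2083 bp (control) and 3678 bp (mutant). The mutant peak was narrower than the median of 7033 bp for the widest mutant H3K4me3 peak at marked coding genes. After joining of peaks separated by under 1 kb, the difference between the conditions was 818 bp in place of 1595 bp, because merging fills the control gap. The control gap was close to the smallest gap in that list, 684 bp. In the wider 50% of each list the control call at Obox5 was lost, and the H3K4me3 difference was 3678 bp. It was 777 bp with windows of 1 kb and 3456 bp with windows of 5 kb.

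Obox2 (15388851 to 15398545), another maternal member, had no peak within 2 kb of its start in any list. The calls came from its far end, with H3K27ac peaks of 958 and 1194 bp in mutant embryos and an H3K4me3 peak of 299 bp in control embryos. The H3K4me3 peak was below the 500 bp required in one of the alternatives, under which Obox2 was not counted. Obox1 (15547257 to 15556846), also maternal, had no peak at or within its body in any list. Its nearest H3K27ac peaks lay 7984 bp (control) and 7962 bp (mutant) from the gene, and its nearest H3K4me3 peaks 39007 and 24888 bp away. A stretch of 54880 bp with no peak in any list contained it and no other Obox entry. Of all protein-coding genes, 15.5% had no peak at a gene end in any list, and on chromosome 7 this applied to 24% of 2030 genes.

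Obox6 (15833250 to 15839679), the last gene of the cluster, carried H3K27ac and H3K4me3 in control as well as mutant embryos. H3K27ac covered 6635 bp of its gene-end windows in the control list and 5455 bp in the mutant list, and H3K4me3 6692 and 7436 bp. The H3K4me3 difference of 744 bp was 0 bp with windows of 1 kb and when peaks under 750 bp or under 1 kb apart were merged. With windows of 5 kb it was 1707 bp. The widest H3K27ac peak in its gene-end windows was 9053 bp (control) and 10057 bp (mutant), and the widest H3K4me3 peak 11229 and 7628 bp. The control H3K27ac peak of 9053 bp ended at 15831836, before the gene. The control H3K27ac peaks over the gene itself measured 4476 and 6972 bp. Both ends of the gene lay under a peak in all 4 lists. The next coding gene beyond it, Crx, a homeobox gene of photoreceptors, began 26268 bp further on and was likewise covered in every list, with 8002 and 7747 bp of H3K27ac and 5872 and 8002 bp of H3K4me3 at its ends in control and mutant embryos. Obox6 shared its fully marked state with 38.9% of coding genes. The state of Obox5 was found at 10.5%, that of Obox3 at 1.85% and that of Obox2 at 1.41%. These shares hold for windows of 2 kb and 1 bp of overlap. The states of Obox2, Obox3 and Obox5 changed under some of the alternatives.

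**Figure D2:**
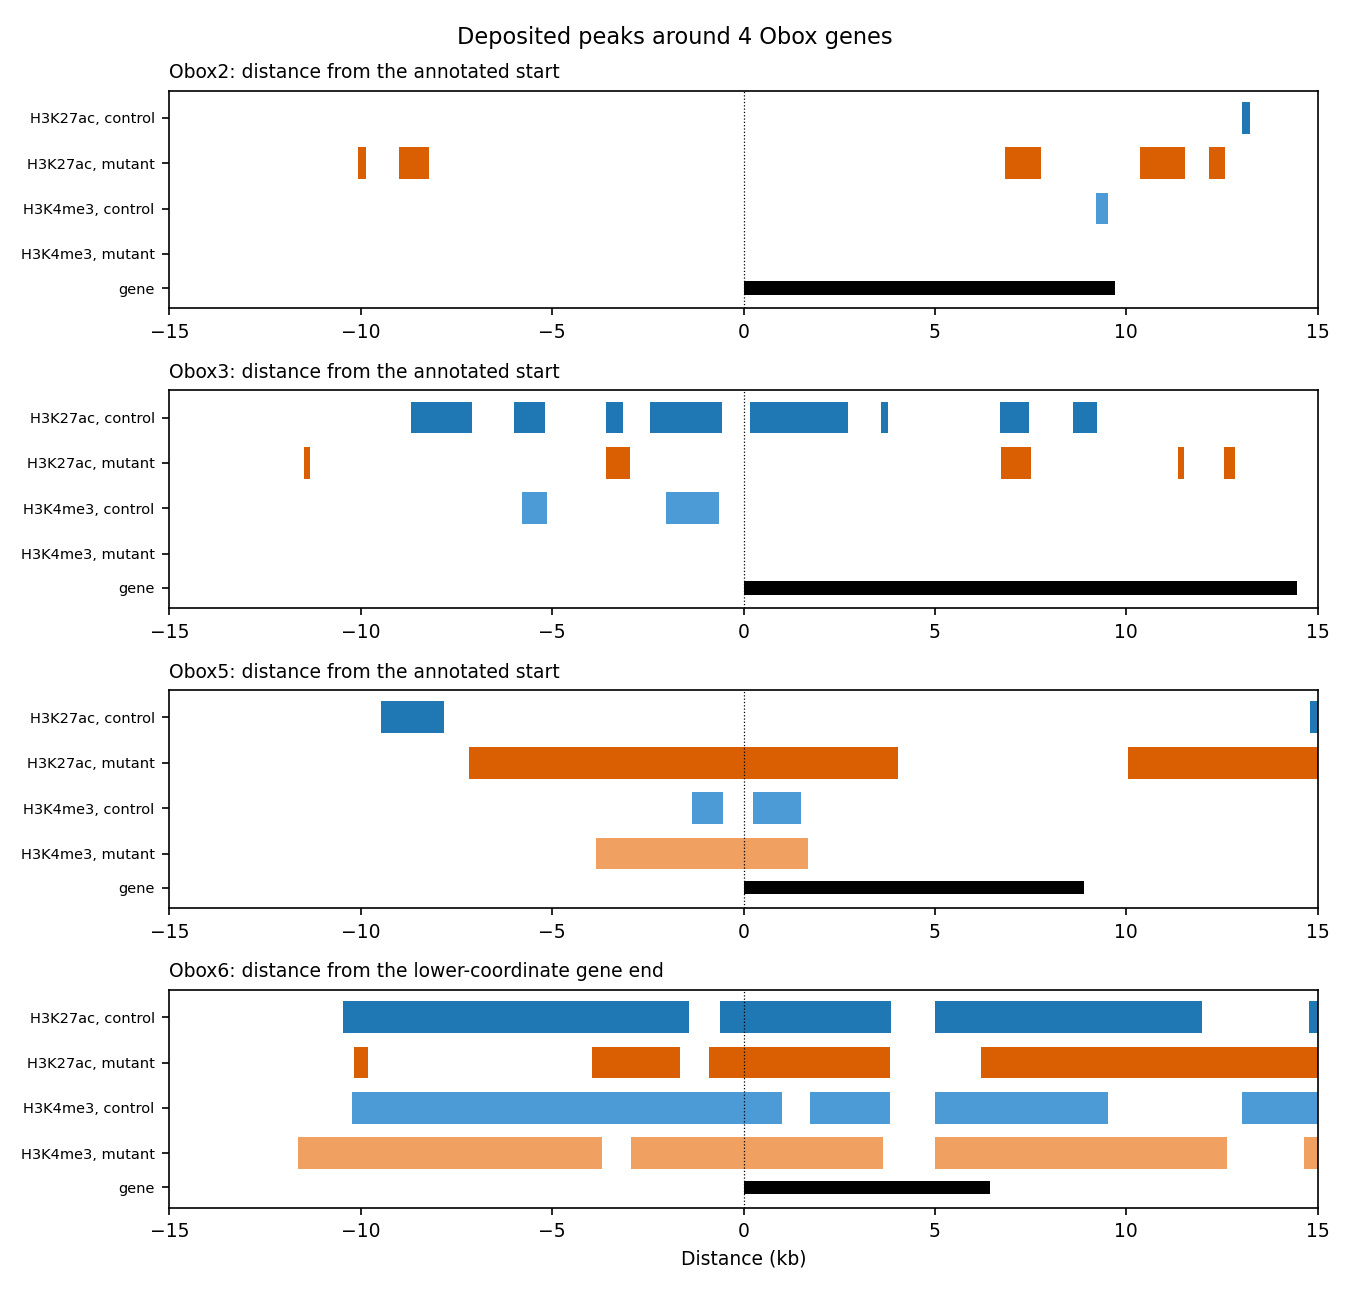
Deposited peaks in each list around 4 genes, as bars against distance (kb) from the annotated start, oriented along the gene, or for Obox6 from its lower-coordinate end; the black bar is the gene. At Obox3 the control H3K27ac list holds peaks on either side of the start, the control H3K4me3 list a peak upstream of it and the mutant lists none within 2 kb, whereas at Obox5 a mutant H3K27ac peak of 11211 bp spans it.

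Coverage was then read over the 450829 bp from the start of Obox2 to the end of Obox6. H3K27ac peaks numbered 29 in control and 44 in mutant embryos and covered 44260 and 70111 bp, or 9.82% and 15.6% of the span. The ratio of peak numbers, mutant to control, was 1.52 in the span, beside 1.58 over all chromosomes. The mutant covered length was 1.58 times the control length, whereas that ratio was 0.870 over chromosome 7 and 0.977 over all chromosomes. With H3K27ac lists of equal size, which drops the narrowest mutant peaks, mutant coverage was 63.8 kb. H3K4me3 peaks numbered 18 and 11 and covered 30149 and 32565 bp, or 6.69% and 7.22%, a ratio of 1.08 against 1.09 over all chromosomes. In windows of the same length across the genome the median share under H3K27ac was 3.19% in control and 4.83% in mutant embryos, with upper quartiles of 11.8% and 12.9%. For H3K4me3 the median was 4.20% and 5.33%. The cluster lay above the median window in all 4 lists and, for mutant H3K27ac, above the upper quartile. Its H3K4me3 shares were nonetheless below those of all chromosomes, 9.44% in the control list and 10.3% in the mutant list.

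The difference in H3K27ac varied along the span. In 50-kb bins counted from the first Obox entry, the bin that holds Obox5 (15717971 to 15767970) had 8944 bp under control and 22120 bp under mutant peaks. The next bin, between Obox5 and Obox6, had 1148 and 12869 bp. The mutant list was thus higher by 13176 and 11721 bp in these bins. Of the other 8 bins that reach into the span, 4 were higher in the mutant list, by 1548 to 6046 bp, and 4 were lower, with differences of -7372 to -398 bp. The bin of Obox3 was among the latter, at -3083 bp. In the interval between Obox5 and Obox6, without an Obox entry, H3K4me3 went the other way, with 6477 bp under control and 0 bp under mutant peaks. The last 21.7 kb, with Obox6 (15817971 to 15839679), had 14964 bp of control and 7592 bp of mutant H3K27ac. That end also carried 48.9% and 49.0% of all H3K4me3 bases of the span, so that without it H3K4me3 covered 3.59% in control and 3.87% in mutant embryos. Both lay below the window medians of 4.20% and 5.33%, so the place of the cluster above the median for H3K4me3 rested on the Obox6 end.

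**Figure D3:**
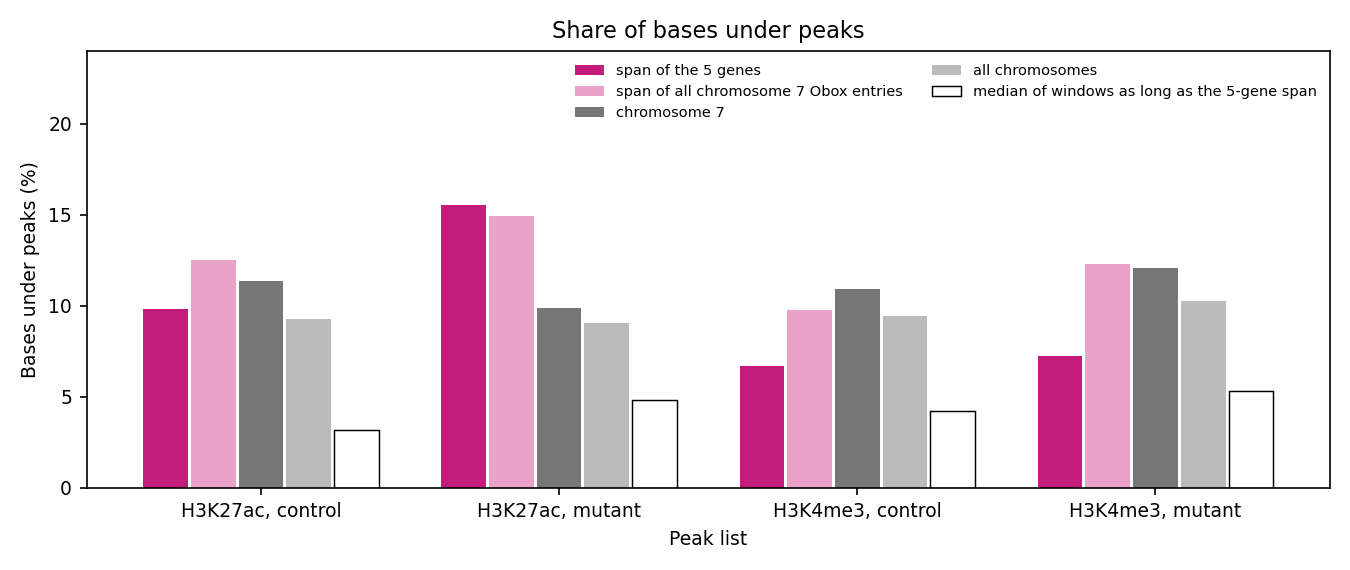
Share of bases (%) under the peaks of each deposited list, for the span of the 5 genes, the span of all chromosome 7 Obox entries, chromosome 7, all chromosomes and, as the median, windows as long as the 5-gene span. The 5-gene span has 15.6% under mutant H3K27ac against 9.82% in control, and 6.69% and 7.22% under H3K4me3.

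The positions of the peaks differed more than their totals. Of the H3K27ac bases in the span, 18153 bp were common to both conditions, which was 41.0% of the control and 25.9% of the mutant bases. Another 26107 bp were found in control only and 51958 bp in mutant only. Over all chromosomes the shared bases made up 43.0% and 44.0%. For H3K4me3, 15877 bp were common, or 52.7% of control and 48.8% of mutant bases, against 57.7% and 53.0% over all chromosomes. The bases under both marks amounted to 16563 bp (control) and 17813 bp (mutant), which was 54.9% and 54.7% of the H3K4me3 bases. Over all chromosomes that share was 52.8% and 36.1%. As a share of H3K27ac bases the overlap was 37.4% and 25.4% in the span, against 53.9% and 41.0% over all chromosomes.

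The other 48 Obox entries comprised the coding gene Obox7 and 47 pseudogenes, of which 7 are named Obox3 and 38 Obox4 on chromosome 7 and the others lie on chromosome 17. Obox7 (14659708 to 14665996), a further maternal member, had no peak at its ends in either control list. In mutant embryos it had 2278 bp of H3K27ac, in peaks of 3255 and 976 bp, and 2674 bp of H3K4me3, in a peak of 3844 bp that covered its 300-base promoter. That promoter and the one of Obox1 were identical at 93.7% of 286 compared bases, and the part of read placement in this call was likewise not tested. Of the 5 coding Obox genes with a listed promoter, Obox5 and Obox7 were the ones with a mutant peak over it. The state of Obox7, marked by both modifications in mutant embryos only, was found at 1.33% of coding genes.

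Of the 7 Obox3 pseudogenes, 6 had H3K27ac in control and 5 in mutant embryos, and 4 and 5 had H3K4me3. The corresponding shares of other pseudogenes were 26.6%, 32.5%, 30.5% and 29.9%. Their coverage could exceed that of Obox3 itself. At the upper end of Obox3-ps4 (15055008 to 15065657) the 4001-bp window was wholly under H3K27ac in control embryos and under H3K4me3 in both conditions, within a control H3K4me3 peak of 21956 bp. The mutant H3K27ac list had 3022 bp in that window, and over both ends 4900 bp against 4001 bp in control. At the upper end of Obox3-ps2 (14799794 to 14810850) the window was likewise full in control H3K27ac and in both H3K4me3 lists, and the mutant H3K27ac list had 811 bp. Of the 38 Obox4 pseudogenes, 8 had H3K27ac in control and 13 in mutant embryos, and 10 had H3K4me3 in each condition. No peak was listed at 19 of them in any list, against 43.6% of other pseudogenes. Over the whole stretch of Obox entries on chromosome 7, 1321709 bp, H3K27ac covered 12.5% in control and 14.9% in mutant embryos and H3K4me3 9.76% and 12.3%.

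**Figure D4:**
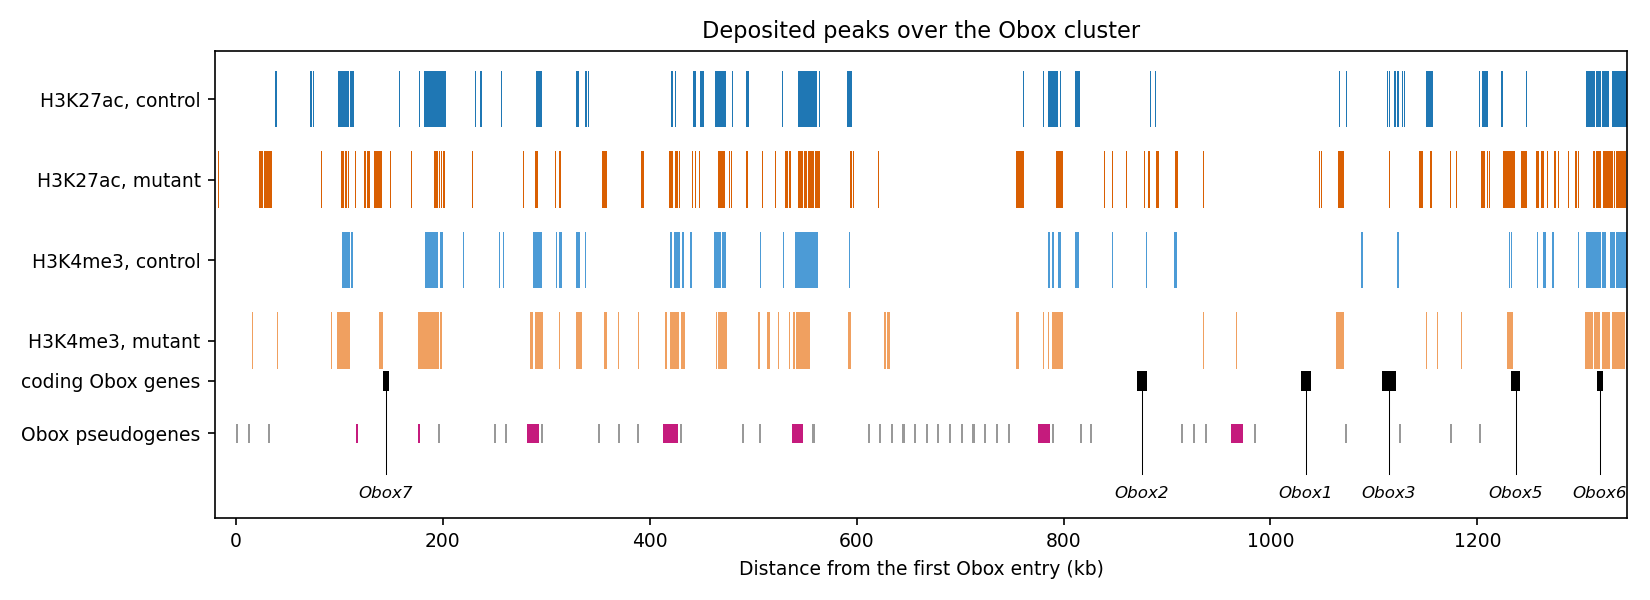
Peaks of the 4 deposited lists (coloured bars) against distance (kb) from the first Obox entry on chromosome 7, with coding Obox genes in black, Obox3 pseudogenes in pink and other Obox pseudogenes in grey. Wide peaks lie at Obox6 and at several pseudogenes of both kinds, and a stretch of 103806 bp with 9 Obox4 pseudogenes holds none.

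Finally, 20 other genes linked to zygotic genome activation were read in the same way, a list that includes Crx. H3K27ac marked 19 in the control list and 18 in the mutant list, beside 54.8% and 58% of coding genes, and H3K4me3 marked 18 and 20, beside 74.7% and 72.9%. A single gene of the 20, Otx2, had H3K27ac in control only, in a peak of 551 bp, beside 12.5% of coding genes. H3K4me3 in mutant only was listed at 2 of the 20, Zscan4c and Zscan4f, beside 4.85% of coding genes. Their peaks measured 983 and 2224 bp, and both belong to a family of similar copies.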

How the data were processed

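Late 2-cell embryos were profiled by native chromatin immunoprecipitation after micrococcal nuclease digestion, per the labels' protocols. The submitters' processing notes name Bowtie2, SAMtools, Picard, MACS2 and deepTools and the build mm10/GRCm38; thresholds, the pooling of replicates and the treatment of reads with several positions are not given in the sources used here. The deposited lists hold 3 columns (chromosome, start, end), with no score, so depth and precision are unknown.

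Peaks on chromosomes 1 to 19, X and Y were read with Python 3.11.15 and NumPy 2.4.6 as BED intervals and printed 1-based. Gene-end windows reached 2 kb to each side, 1 bp counted as overlap, and width is that of the whole peak. Starts came from the RefSeq promoter table (the first listed per gene). The interval code was checked on simulated peaks against brute force. Alternatives were windows of 1 and 5 kb, starts alone, 500 bp in the windows, the wider 50% of each list, common limits (peaks under 750 bp apart merged, peaks under 200 bp dropped), merging within 1 kb, equal list sizes and 10 kb of padding. The members, lists and alternatives were chosen with earlier results of these data known. Named genes were the members, all other Obox entries as groups or where a comparison needed one, the neighbour Crx, and genes of the activation list marked in 1 condition only; the other neighbour, Vmn1r90, had no peak at its ends.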

Additional observations from a re-analysis of the deposited data

How the results depend on the processing

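No paired analysis was possible because the 2 libraries of a group come with 1 joint list; leaving out a replicate could not be run for the same reason. A covered length or count was taken as unchanged within 1.5 times, so that a loss of 1 among 4 members is not counted as a move. Of the values recomputed for the comparisons, 110 were unchanged and 14 moved. Some of the 110 could not move, since equal list sizes leave the shorter list of each mark as it was. Keeping the wider 50% of each list left 1 member with H3K4me3 in control embryos in place of 4 and 2 in mutant embryos, so that the order of the conditions turned, with 0 control-only members in place of 2 and 1 mutant-only member in place of 0. It also lowered control H3K4me3 coverage of the span from 30.1 to 19.8 kb and its control-only part from 14.3 to 5.999 kb. The H3K27ac control-only count was 1 (Obox3) in place of 0 with windows of 1 kb, a minimum of 500 bp in the windows, the wider 50% and equal list sizes. The H3K27ac mutant-only count was 1 in place of 2 with windows of 5 kb, which ended the call at Obox2, and the H3K4me3 control-only count 1 in place of 2 with the 500 bp minimum. Reading starts alone left 1 of 4 members with H3K27ac in mutant embryos in place of 3. The span of all Obox entries had 12.3% of its bases under mutant H3K4me3, against 7.22% for the 5 genes. Windows of 5 kb marked 22 of the 48 other Obox entries with control H3K4me3 in place of 14, while the share of other pseudogenes went from 30.5% to 40.8%. For single members, the difference in covered bases between conditions kept its sign or went to 0 under each alternative run, with 18 of 60 values beyond 1.5 times. The 60 values include those of Obox1, which were 0 under every setting.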

Other observations

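A peak boundary inside Obox6 was the same to the base in 3 of the 4 lists. The control H3K27ac list and both H3K4me3 lists each began a peak at position 15838245 of chromosome 7, and the peak before it ended between 15836883 and 15837113. Of 372414 peak starts on chromosomes 1 to 19, X and Y, 0.209% lay at a base used by 2 or more lists, and only 4 positions were shared by 3 lists. The mutant H3K27ac list began its peak at 15839460.

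The longest stretch of the cluster with no peak in any list measured 103806 bp (15167843 to 15271648) and held 9 Obox4 pseudogenes, Obox4-ps15 to Obox4-ps23, whose starts follow each other at 11268 to 11341 bp and of which 7 are 1763 bp long. On chromosome 7, 62 peak-free stretches were as long or longer, and over all chromosomes 973 of 209565. The sequences of these pseudogenes were not compared, and the part of read placement in the missing peaks was not tested.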
